A study of Homo sapiens with 20 samples.

Results

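The transcripts of 9 complement genes were followed in human keratinocytes with and without the eIF2 kinase GCN2, before and after wounding. They are C1R, C1S, C1RL, C3, CFB, SERPING1, CD46, CD55 and CD59, and they make up 9 of the 57500 genes listed in every library. They were chosen by name as the complement components and regulators seen in these cells, with C1R already known to have the strongest evidence of a lower level in the GCN2KO cells after HDW. Differences between the genotypes in these 9 genes are therefore given as a description, without a test. The effect of HDW within a genotype, and the difference of that effect between genotypes, were tested across all genes. That difference is also the change of the genotype difference with HDW, in the same libraries. Its test is therefore not independent of how the genes were chosen.

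Complement is a cascade of plasma and tissue proteins that marks surfaces for removal and can pierce membranes. In the classical pathway, the serine proteases C1r and C1s are activated in sequence and cut further components, while the alternative pathway builds its convertase from C3 and factor B. The C1 inhibitor encoded by SERPING1 blocks C1r and C1s, and the membrane proteins CD46, CD55 and CD59 protect host cells from C3 deposition, from convertases and from the membrane attack complex. C1RL encodes a protease related to C1r. Keratinocytes are known to make several complement proteins themselves.

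All 20 cultures were of NTERT cells, an immortalized line of human keratinocytes that is 1 line and not a set of donors. There were 5 replicates in each of 4 groups, made of WT or GCN2KO cells that were either left unwounded or subjected to HDW. According to the methods of the study, WT cells carried a control guide RNA, and GCN2KO cells were an early-passage pool edited with Cas9 and a guide against EIF2AK4, the gene that encodes GCN2, so the pool can hold unedited cells. Both genotypes were grown in low-calcium medium and, as the HDW method describes it, differentiated with calcium and serum before wounding. In HDW (high-density wounding), multichannel pipet tips are drawn across the monolayer in perpendicular directions, and RNA was taken 6 h later. The labels do not say whether the 5 replicates came from separate passages, so p-values measure the spread between these cultures.

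Promoter sequence was taken from RefSeq on GRCh38.p14 for the members that the comparisons turn on. Of the 9 genes, 6 had an entry, and C1S, C3 and SERPING1 had none. The stretches below lie within 250 bases upstream of the RefSeq start site, are printed 5′ to 3′ on the strand of the gene without exon bases, and show in capitals the matches to short motifs.
C1R, chr12:7092541-7092695, minus strand: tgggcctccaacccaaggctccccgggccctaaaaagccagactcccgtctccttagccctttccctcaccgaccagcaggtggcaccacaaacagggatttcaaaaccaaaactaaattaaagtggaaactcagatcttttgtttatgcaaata
C1RL, chr12:7109239-7109464, minus strand: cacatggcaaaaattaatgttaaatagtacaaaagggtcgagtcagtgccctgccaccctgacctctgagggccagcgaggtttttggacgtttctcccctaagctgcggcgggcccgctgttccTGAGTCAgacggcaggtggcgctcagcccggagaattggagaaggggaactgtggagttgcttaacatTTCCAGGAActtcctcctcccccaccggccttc
CFB, chr6:31945845-31945974, plus strand: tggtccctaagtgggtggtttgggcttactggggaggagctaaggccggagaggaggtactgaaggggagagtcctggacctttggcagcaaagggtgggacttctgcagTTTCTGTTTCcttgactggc
CD46, chr1:207751788-207752036, plus strand: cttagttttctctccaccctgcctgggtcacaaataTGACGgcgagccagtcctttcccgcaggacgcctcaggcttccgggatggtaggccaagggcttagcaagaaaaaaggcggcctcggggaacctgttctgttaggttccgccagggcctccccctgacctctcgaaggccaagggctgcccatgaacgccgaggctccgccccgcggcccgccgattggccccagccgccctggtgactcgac
CD59, chr11:33736480-33736729, minus strand: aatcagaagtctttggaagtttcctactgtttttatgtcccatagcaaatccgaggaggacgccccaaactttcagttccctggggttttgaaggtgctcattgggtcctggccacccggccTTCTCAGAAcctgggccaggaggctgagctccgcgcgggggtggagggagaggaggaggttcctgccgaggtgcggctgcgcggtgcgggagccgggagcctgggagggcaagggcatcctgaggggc
The C1R stretch is shown because C1R had the largest difference between genotypes, C1RL because its gene body overlaps that of C1R, CFB as the alternative pathway gene, and CD46 and CD59 because HDW moved them in opposite directions in WT cells. Motifs were searched on both strands over the 250 bases before the start site. The GAS (gamma-activated sequence) motif TTCNNNGAA was found in C1RL (TTCCAGGAA, 57 to 49 bases before the start), in CD59 (TTCTCAGAA, 128 to 120 bases before it) and in CFB (92 to 84 bases before it, outside the printed stretch). It occurs in 6.57% of 35116 promoters of this length. An interferon response element core, GAAA and GAAA with any 2 bases between them, lay in CFB 140 to 131 bases before the start, on the other strand, and occurs in 3.02% of promoters. The AP-1 motif TGANTCA was present in C1RL 125 to 119 bases before the start (6.57% of promoters), and the CRE core TGACG in CD46 214 to 210 bases before it (21.2% of promoters). The C1R and CD55 promoters also hold the CRE core, outside the printed stretch of C1R, and CFB holds a TATA box, TATAAA (10.7% of promoters). No promoter of these 6 genes held the NF-kB motif, GGGA and TTTCC with any base between them, or the C/EBP-ATF element TGATGNAA, which occur in 0.527% and 3.14% of promoters.

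EIF2AK4 transcripts checked the labels first. WT unwounded libraries held 4152 to 4555 normalized read counts of EIF2AK4 and GCN2KO unwounded libraries 806 to 962. After HDW, WT libraries held 3980.2 to 4303 and GCN2KO libraries 809.8 to 951. No GCN2KO library overlapped a WT library, so every library matched its genotype label. A normalized read count is a count divided by the TMM effective size of its library relative to the mean of the 20 libraries, which held 14083504 to 34611570 counts each.

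Library groups and cell type markers set limits on what follows. The first principal component of all genes carried 63.2% of the variance and separated the genotypes, with WT libraries at -59.5 to -37.0. GCN2KO unwounded replicate 1 (37.5) and GCN2KO HDW replicate 5 (36.1) lay nearer to WT than the other GCN2KO libraries (50.6 to 56.7), although their EIF2AK4 counts, 806 and 814, were among the lowest. On the second component, which carried 11.4%, GCN2KO unwounded replicates 2 (8.07) and 4 (3.95) lay nearer to the HDW libraries than the other 3 (18.0 to 19.2). Values without these libraries are given beside some of the results they touch. The keratinocyte genes KRT5, KRT14 and TP63 were high in every library. IVL, the differentiation gene involucrin, had 2928 to 3551 normalized read counts in WT unwounded and 8429.9 to 14743 in GCN2KO unwounded libraries, and KRT14, of the basal layer, had 61669 to 66234 and 32687 to 41608. The 6 keratinocyte markers did not move one way. Between unwounded genotypes, the basal genes KRT14 (log2 fold change -0.85, edgeR adjusted p = 1.18e-07) and TP63 (-0.52, edgeR adjusted p = 2.37e-06) were lower in GCN2KO cells, but the basal KRT5 was higher (0.50, edgeR adjusted p = 3.70e-05). Of the differentiation genes, IVL was higher (1.83, edgeR adjusted p = 4.94e-09), KRT1, at most 31.8 normalized read counts in these libraries, was lower (-1.06, edgeR adjusted p = 0.00179), and KRT10 had overlapping groups (0.23, edgeR adjusted p = 0.144). The part of differentiation in the results was not tested.

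Markers of other cell types were low or absent, except CD14 and COL1A1. The summed endothelial markers (PECAM1, VWF, CDH5) did not exceed 18.2 normalized read counts in any library. The 4 melanocyte markers summed to 56.5 to 100.3, and TYR of melanocytes was at 0 in all libraries, and PTPRC of leukocytes was at 0 in 3 of the 4 groups and at most 1.7 in the other. COL1A1 made up most of the 7 fibroblast markers, whose sum was 904 to 1043 in WT unwounded and 669 to 889 in GCN2KO unwounded libraries, while COL3A1 and PDGFRA stayed at or near 0. The 5 leukocyte and macrophage markers summed to 1635 to 1884 in WT unwounded, 907 to 1070 in WT HDW, 725 to 1303 in GCN2KO unwounded and 493 to 1084 in GCN2KO HDW libraries. Nearly all of that sum was CD14, at 1576 to 1813 in WT unwounded and 587 to 1208 in GCN2KO unwounded libraries. CD68, on the same list, went the other way, at 37.6 to 57.1 in WT unwounded and 73.9 to 116 in GCN2KO unwounded libraries (log2 fold change 1.00, edgeR adjusted p = 8.90e-05), and CSF1R overlapped (0.31, edgeR adjusted p = 0.257). The part of these markers in the results was not tested.

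All 9 genes were well above the filter for weak expression in every group and all 9 were tested in every comparison. Per kilobase of exon, C3 was the most abundant, at 5254 ± 336 (SD, n = 5) normalized read counts per kb in WT unwounded cells. C1R followed with 1067 ± 42.7, CD59 with 767 ± 19.1 and CD46 with 693 ± 20.6 per kb, and the 5 libraries of each did not overlap with those of the next. C1S (377 ± 24.8 per kb) and C1RL (341 ± 14.9 per kb) overlapped, as did CFB (156 ± 9.67 per kb) and CD55 (156 ± 7.48 per kb). SERPING1 was lowest, at 121 ± 4.87 per kb. The length used is that of all annotated exonic bases of a gene (5803 for C1R and 15505 for CD46), not of the transcripts made. The order between genes depends on this length.

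The order was another in GCN2KO unwounded cells. C3 was still first, at 1410.1 ± 221 per kb, but its libraries overlapped those of CD59 (975.4 ± 161 per kb). C1R, second in WT cells, stood at the seventh place, with 71.3 ± 13.8 per kb, between CFB (91.5 ± 7.42 per kb) and SERPING1 (50.9 ± 10.04 per kb), and overlapped with both. C1S was the last, at 32.5 ± 7.94 per kb, and overlapped with SERPING1. The membrane regulators CD46 (520.3 ± 89.7 per kb) and CD55 (227 ± 22.2 per kb) came next after CD59.

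C1R, the protease that starts the classical cascade, had the largest difference between genotypes among the 9 genes. The 5 WT unwounded libraries held 5938, 6352, 6525, 6177 and 5981 normalized read counts of C1R, in replicate order. The 5 GCN2KO unwounded libraries held 534, 446, 326, 395 and 366. Every GCN2KO library was far below every WT library, and replicate 1, which lay nearer to WT on the first component, was the highest of them. The log2 fold change was -3.91 (SE 0.11), a 15.01-fold lower level, and -4.02 without replicate 1. In bulk RNA, fewer cells with the transcript and less of it per cell cannot be told apart.

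After HDW the distance in C1R was of similar size. WT HDW libraries held 4659, 4813, 4449, 4498 and 4970.5 normalized read counts, and GCN2KO HDW libraries 349, 374, 366, 288 and 432. Again no libraries overlapped, and replicate 5, the other library nearer to WT, was the highest GCN2KO library. The log2 fold change was -3.68 (SE 0.077), which is 12.8-fold lower, and -3.74 without replicate 5. Its p-value was the smallest of the 15855 genes tested, which is the result by which C1R was known beforehand.

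C1S, the protease cut by C1r, lies on the opposite strand of the same stretch of chromosome 12. WT unwounded libraries held 2828, 3221, 3374, 3185 and 3049 normalized read counts and GCN2KO unwounded libraries 365, 207, 242, 225 and 309.9. After HDW, WT libraries held 2337, 2269.6, 2100.4, 2107 and 2345 and GCN2KO libraries 163, 171, 164, 164 and 241. The genotypes were apart in both states, with GCN2KO unwounded replicate 1 and GCN2KO HDW replicate 5 the nearest to WT. The log2 fold changes were -3.53 (SE 0.13) in unwounded cells and -3.62 (SE 0.092) after HDW, or -3.66 and -3.75 without those 2 libraries.

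The C1R and C1S counts kept a nearly fixed ratio in WT cells. There were 1.93 to 2.10 C1R normalized read counts for each of C1S in WT unwounded libraries and 1.99 to 2.13 in WT HDW libraries. In GCN2KO unwounded libraries the ratio spread from 1.18 to 2.16, and after HDW from 1.76 to 2.22. Over the 20 libraries, the log2 levels of C1R and C1S had a Pearson's r of 0.993, and of 0.554 once the group means were removed. The first value mainly carries the difference between genotypes.

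C1RL, the C1r-like protease, was lower in GCN2KO cells by less. Its levels were 1578, 1772, 1716, 1687 and 1739.8 normalized read counts in WT unwounded libraries against 690.1, 575, 599, 683 and 620.5 in GCN2KO unwounded libraries. After HDW they were 1108, 1154, 1183, 1035 and 1106 against 500.4, 508, 530.1, 525 and 577. No libraries of the 2 genotypes overlapped in either state. The log2 fold changes were -1.42 (SE 0.068) and -1.08 (SE 0.052).

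C1R (chr12:7080214-7092540, minus strand) and C1RL (chr12:7089587-7109238, minus strand) overlap in GRCh38, GENCODE release 44. Shared exonic bases make up 11.6% of the exonic bases of C1R and 13.5% of those of C1RL, so the counting could have moved or dropped reads between them. Summed into 1 gene, C1R and C1RL had log2 fold changes of -2.91 in unwounded cells and -2.70 after HDW. The ratio of C1R to C1RL was 3.44 to 3.80 in WT unwounded and 0.545 to 0.776 in GCN2KO unwounded libraries. A further 4.12% of the exonic bases of C1RL lie opposite C1RL-AS1, which had 105 to 213 normalized read counts in unwounded libraries.

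**Figure D1:**
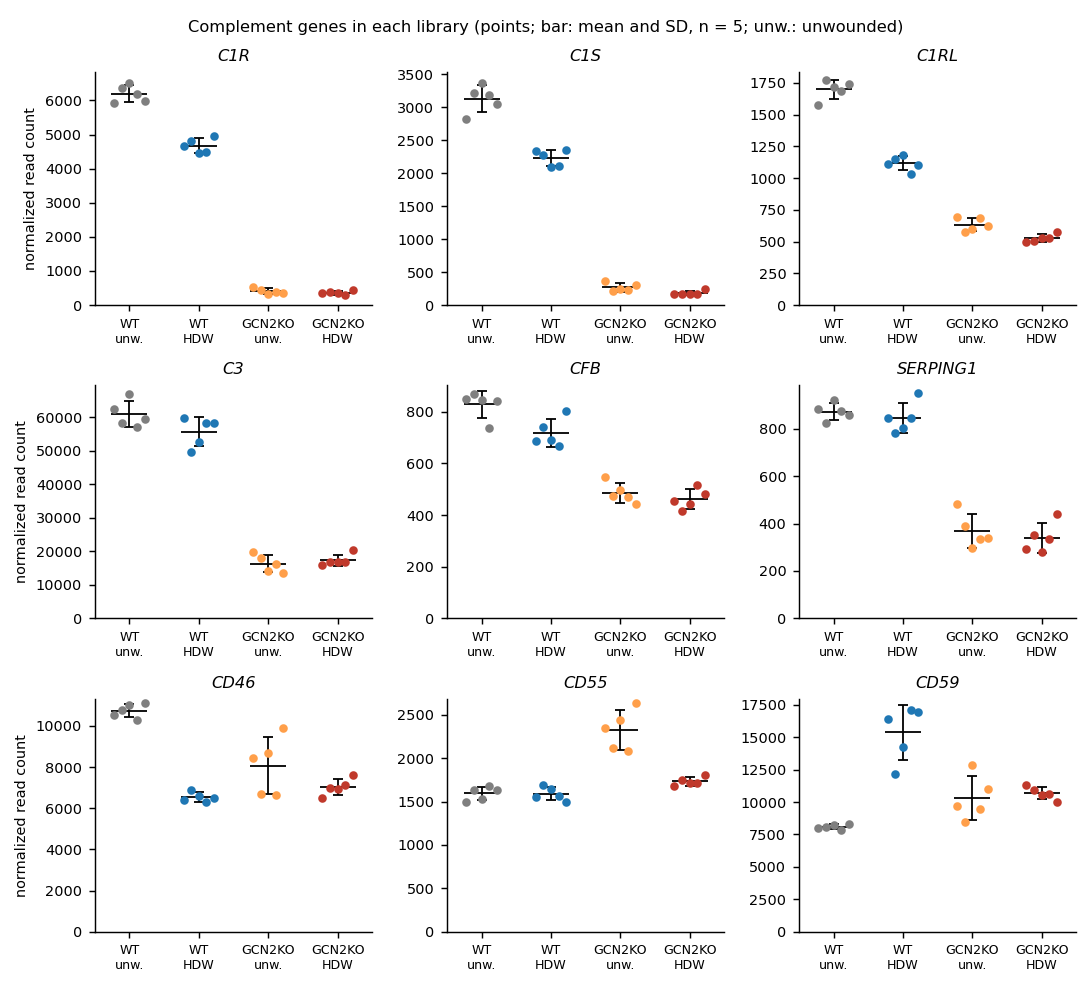
Normalized read counts (linear axes from 0) of the 9 complement genes in each of the 20 libraries, by group, with the mean and SD of 5 replicates. C1R, C1S, C1RL, C3, CFB and SERPING1 are lower in all GCN2KO libraries than in all WT libraries of the same state, while CD46, CD55 and CD59 have other patterns.

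C3, the central component of all pathways, and CFB, which encodes factor B of the alternative pathway, were also lower in GCN2KO cells. C3 had 62411, 58291, 66828, 57129 and 59485 normalized read counts in WT unwounded libraries and 19669, 18002, 14075, 16211 and 13670 in GCN2KO unwounded libraries. After HDW it had 59679.7, 49517, 52558, 58306 and 58281 in WT and 16048, 16713, 16877, 16675 and 20237 in GCN2KO libraries. The lowest WT library held more than the highest GCN2KO library in both states. The log2 fold changes were -1.89 (SE 0.10) and -1.68 (SE 0.071), or -1.97 without GCN2KO unwounded replicate 1 and -1.75 without GCN2KO HDW replicate 5.

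CFB differed less than C3. It had 849, 869, 845, 739 and 840.5 normalized read counts in WT unwounded libraries and 548, 475, 496, 468 and 443 in GCN2KO unwounded libraries. In HDW libraries the values were 687, 741, 690.3, 669 and 803 in WT and 453, 417, 445, 517 and 483 in GCN2KO cells. The genotypes did not overlap, and the log2 fold changes were -0.76 (SE 0.075) and -0.64 (SE 0.068), short of the fold change threshold for a DE gene. For that call, both a log2 difference of 1 or more in either direction and an adjusted p no higher than 0.05 were needed. The ratio of C3 to CFB counts was 67.1 to 79.1 in WT unwounded and 28.4 to 37.9 in GCN2KO unwounded libraries.

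Both loci share exons with other annotated genes. For C3 (chr19:6677704-6730562, minus strand), 11.7% of the exonic bases are shared with ENSG00000276980 on the same strand, which had 6.67 to 74.9 normalized read counts. For CFB (chr6:31945650-31952086, plus strand), 42.3% are shared with ENSG00000244255, which had at most 0.958 normalized read counts in any library. The counting could have moved or dropped reads in shared bases, whatever the count of the other gene.

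SERPING1, the inhibitor of C1r and C1s, was lower in GCN2KO cells as well. WT unwounded libraries held 884, 823, 919, 875 and 859.8 normalized read counts and GCN2KO unwounded libraries 483, 391, 296, 334 and 339. WT HDW libraries held 844, 781, 803, 845 and 949.6, and GCN2KO HDW libraries 294, 351, 280.1, 334 and 439. The genotypes were apart in both states, and the 2 GCN2KO libraries nearer to WT were again the highest of their groups. The log2 fold changes were -1.25 (SE 0.11) in unwounded cells and -1.32 (SE 0.10) after HDW, or -1.37 and -1.43 without those 2 libraries. No exonic base of SERPING1 (chr11:57597387-57619171, plus strand) is shared with another gene.

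The ratio of C1R to SERPING1 transcript counts, not corrected for gene length, differed between the genotypes. Both genes were chosen with their genotype differences known, so the ratio is given as a description. Their proteins were not measured, and the paper reports genes with higher transcript but lower protein levels in GCN2KO cells. There were 6.71 to 7.72 C1R normalized read counts for each of SERPING1 in WT unwounded libraries, and 5.23 to 6.16 in WT HDW libraries. In GCN2KO cells the ratio was 1.08 to 1.18 in unwounded and 0.860 to 1.31 in HDW libraries.

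The membrane regulators did not share 1 pattern. CD46, a cofactor for the inactivation of C3b on host cells, had 10556, 10756, 10998, 10314 and 11096 normalized read counts in WT unwounded libraries. GCN2KO unwounded libraries held 8439, 6696, 8679, 6637 and 9883, all below WT but with replicates 2 and 4 well under the other 3. The log2 fold change was -0.41 (SE 0.096), and -0.25 without replicates 2 and 4, a choice made after seeing the data. After HDW, WT libraries held 6409.5, 6900.4, 6586, 6322 and 6521 and GCN2KO libraries 6504, 6971, 6929, 7109 and 7641. These overlapped, with a log2 fold change of 0.10 (SE 0.045).

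CD55, the factor that speeds the decay of convertases, was higher in GCN2KO unwounded libraries, at 2353, 2121, 2437, 2084 and 2632 normalized read counts. WT unwounded libraries held 1500.4, 1638, 1532, 1679 and 1638. All 5 GCN2KO libraries were above all 5 WT libraries, replicates 2 and 4 again the lowest. The log2 fold change was 0.55 (SE 0.072), and 0.63 without replicates 2 and 4. After HDW, CD55 had 1553, 1687, 1644, 1565 and 1498 normalized read counts in WT and 1679, 1748, 1710.1, 1715 and 1811 in GCN2KO libraries. Only 1 pair of libraries crossed, and the log2 fold change was 0.12 (SE 0.042).

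CD59, which blocks the membrane attack complex, differed in opposite directions in the 2 states. WT unwounded libraries held 7997, 8085, 8235, 7820.1 and 8337 normalized read counts, and GCN2KO unwounded libraries 9713, 8449, 12856, 9453 and 11014. After HDW, WT libraries held 16431, 12176, 14238, 17063 and 16979 and GCN2KO libraries 11326, 10908, 10532, 10641 and 10013. The GCN2KO libraries were all higher in unwounded cells, with a log2 fold change of 0.35 (SE 0.091), and all lower after HDW, with -0.52 (SE 0.081). Without GCN2KO unwounded replicates 2 and 4, the value in unwounded cells was 0.47. Antisense or same-strand neighbours share 5.14% of the exonic bases of CD46 and 5.96% of those of CD59, and none of CD55.

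In unwounded cells, 5 of the 9 genes were lower DE genes in GCN2KO cells and none was a higher one, beside 8.22% of all 15348 genes tested for lower, 8.21% for higher and 16.4% for either kind of DE gene. After HDW the same 5 genes, C1R, C1S, C1RL, C3 and SERPING1, were lower DE genes, beside 7.83% of 15855 genes for lower and 14.9% for either direction. The median log2 fold change of the 9 genes was -1.25 and -1.08, against 0.00 over all genes in both comparisons. By adjusted p alone, 9 and 8 of the 9 passed, beside 66.5% and 71.7% of all genes. In each state 7 of the 9 had all GCN2KO libraries below all WT libraries, as had 27.0% and 29.3% of all genes. The genes were chosen with these differences known, so nothing is read from the counts.

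**Figure D2:**
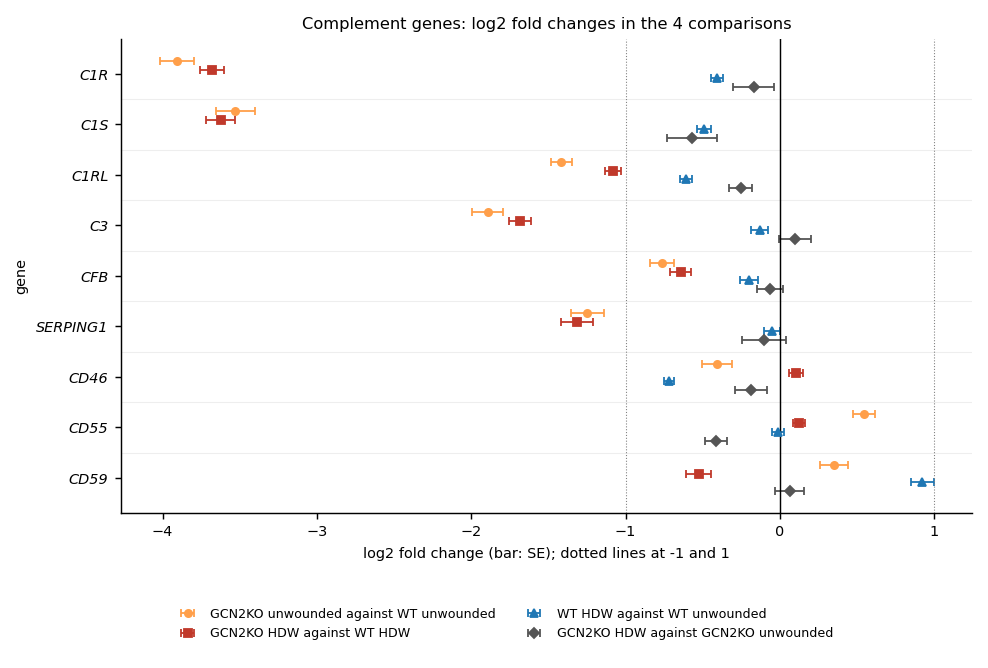
Log2 fold changes (points, with SE) of the 9 complement genes in 4 comparisons, with dotted lines at the thresholds of -1 and 1. C1R and C1S lie at -3.53 or below in both comparisons of genotypes, and no gene reaches -1 or 1 after HDW in either genotype.

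HDW lowered C1R, C1S and C1RL in WT cells by a modest amount. C1R fell by 0.41 on the log2 scale (edgeR adjusted p = 4.80e-07, SE 0.039), from 6195 ± 248 to 4678 ± 217 normalized read counts (SD, n = 5). C1S fell by 0.49 (edgeR adjusted p = 4.87e-07, SE 0.047) and C1RL by 0.61 (edgeR adjusted p = 1.31e-08, SE 0.041). For each of these 3 genes, all WT HDW libraries were below all WT unwounded libraries. Summed into 1 gene, C1R and C1RL fell by 0.45 (edgeR adjusted p = 8.67e-08).

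The alternative pathway genes and the inhibitor moved less in WT cells. CFB fell by 0.20 (edgeR adjusted p = 0.00922, SE 0.058), although its libraries overlapped. C3 had a log2 fold change of -0.13 (edgeR adjusted p = 0.0629, SE 0.056) with a 95% interval of -0.26 to -0.002, and SERPING1 of -0.05 (edgeR adjusted p = 0.446, SE 0.052). C3 passed the threshold in 5 of 18 alternatives, so its call depends on the settings.

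The membrane regulators showed the widest contrast after HDW in WT cells. CD59 rose by 0.92 (edgeR adjusted p = 8.27e-08, SE 0.074), from 8095 ± 202 to 15378 ± 2125 normalized read counts, and all HDW libraries were above all unwounded ones. WT HDW replicate 2, at 12176, was the lowest of them. CD46 fell by 0.72 (edgeR adjusted p = 4.45e-10, SE 0.034), with no overlap. CD55 had a log2 fold change of -0.01 (edgeR adjusted p = 0.838, SE 0.042), with a 95% interval of -0.11 to 0.08.

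None of the 9 genes was a DE gene after HDW in WT cells, by edgeR or by DESeq2, beside 4.17% of all 15348 genes, and 7 had an unadjusted p under 0.05. By adjusted p alone, 5 of the 9 fell and 1 rose, beside 25.2% and 26.1% of all genes, and 51.3% in either direction. Their median log2 fold change was -0.20, against 0.00 over all genes.

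In GCN2KO cells, 3 of the 9 genes passed the adjusted p after HDW. CD55 fell by 0.41 (edgeR adjusted p = 0.00186, SE 0.070), from 2326 ± 228 to 1733 ± 50.2 normalized read counts, with all HDW libraries below all unwounded ones. C1S fell by 0.57 (edgeR adjusted p = 0.0220, SE 0.16) and C1RL by 0.25 (edgeR adjusted p = 0.0274, SE 0.075), both with overlapping libraries. These 2 calls were borderline. C1S missed the threshold when GCN2KO unwounded replicate 5 or GCN2KO HDW replicate 1, 2 or 3 was left out (edgeR adjusted p = 0.0605, 0.0524, 0.0560 and 0.0590), with log2 fold changes of -0.51 to -0.55. C1RL missed it in 8 of 20 alternatives, the replicate block among them (edgeR adjusted p = 0.0804), with log2 fold changes of -0.22 to -0.25.

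The other 6 genes did not pass. C1R had a log2 fold change of -0.17 (edgeR adjusted p = 0.358, SE 0.13), C3 of 0.10 (edgeR adjusted p = 0.530, SE 0.10), CFB of -0.06 (edgeR adjusted p = 0.597, SE 0.081) and SERPING1 of -0.10 (edgeR adjusted p = 0.634, SE 0.14). CD59, the gene that rose most in WT cells, had 0.06 (edgeR adjusted p = 0.647, SE 0.094), with a 95% interval of -0.15 to 0.28. CD46 had -0.19 (edgeR adjusted p = 0.186, SE 0.10), and fell by 0.35 (edgeR adjusted p = 0.00311) without GCN2KO unwounded replicates 2 and 4. None of the 9 was a DE gene by edgeR or DESeq2, beside 0.671% of all 15791 genes, 3 had an unadjusted p under 0.05, and 3 of 9 falling by adjusted p alone stood beside 10.8% of all genes, or 22.7% in either direction. Without GCN2KO unwounded replicate 1 and GCN2KO HDW replicate 5, CD55, C1S and C1RL still passed (edgeR adjusted p = 0.00545, 0.00990 and 0.0356).

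The difference between the 2 responses was tested as an interaction over all 20 libraries, where a positive value means a higher log2 fold change after HDW in GCN2KO than in WT cells. The response of 4 of the 9 genes differed. CD59 had -0.87 (edgeR adjusted p = 2.97e-05, SE 0.13), CD46 0.52 (edgeR adjusted p = 0.00166, SE 0.11), CD55 -0.42 (edgeR adjusted p = 7.10e-04, SE 0.083) and C1RL 0.34 (edgeR adjusted p = 0.00431, SE 0.083). All 4 passed in each alternative that was run, including both sets of libraries that stood apart being left out. Without GCN2KO unwounded replicates 2 and 4, CD46 had 0.36 and CD59 -0.995 (edgeR adjusted p = 8.84e-04 and 2.83e-06).

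For the remaining 5 genes no difference in the response was detectable. C1R had an interaction of 0.23 (edgeR adjusted p = 0.219, SE 0.13), with a 95% interval of -0.05 to 0.51, and passed in 1 alternative, without GCN2KO unwounded replicate 1 (0.34, edgeR adjusted p = 0.0323). C1S had -0.09 (edgeR adjusted p = 0.725, SE 0.16), with an interval of -0.43 to 0.25, and C3 0.21 (edgeR adjusted p = 0.227, SE 0.12). CFB had 0.13 (edgeR adjusted p = 0.383, SE 0.099) and SERPING1 -0.06 (edgeR adjusted p = 0.810, SE 0.15). None of the 9 was a DE gene in the interaction by edgeR or DESeq2, beside 3.31% of 16536 genes, and 4 had an unadjusted p under 0.05. By adjusted p alone, 2 of the 9 were higher and 2 lower, beside 11.2% and 12.5% of all genes, or 23.7% in either direction.

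The genes around C1R and C1S were examined because C1R, C1S and C1RL lie in 1 region of chromosome 12. Within 200 kb of C1R, C1S and C1RL there were 37 other genes, of which 21 were tested. In unwounded cells, 3 of these were lower DE genes in GCN2KO cells and 1 was higher, and after HDW 2 were lower and 2 higher. These 4 of 21 in each state stood beside 16.4% and 14.9% of all genes, a share near that of all genes, and nothing is read from their number. PHB2 had log2 fold changes of -1.11 (SE 0.089) and -1.38 (SE 0.057), P3H3 of -1.21 (SE 0.090) and -1.17 (SE 0.070) and PTPN6 of -1.12 (SE 0.071) and -0.90 (SE 0.064) in the 2 states. ENO2, a glycolytic enzyme of neurons and other cells, had 1.997 (SE 0.11) and 1.23 (SE 0.088), and CLSTN3 had 0.56 (SE 0.098) and 1.13 (SE 0.087). All 8 calls among the neighbours had an edgeR adjusted p of at most 5.09e-08. None of the neighbours reached the size of the differences in C1R and C1S, and LPCAT3, whose start site lies between theirs, was lower in unwounded (-0.51, edgeR adjusted p = 2.06e-05) and higher in HDW cells (0.48, edgeR adjusted p = 4.63e-05). Of the exonic bases of LPCAT3, 66.0% lie opposite those of EMG1, so their reads may be mixed.

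**Figure D3:**
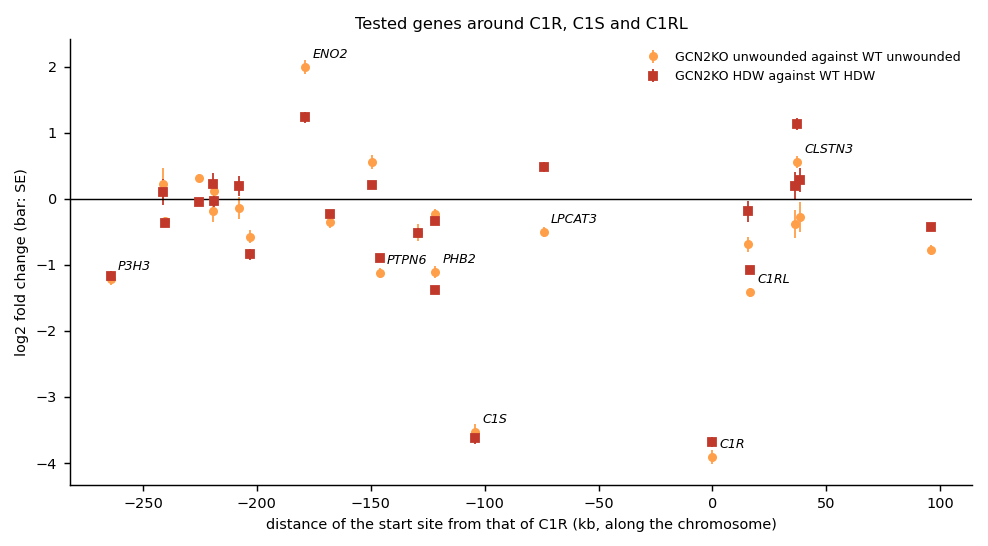
Log2 fold change between GCN2KO and WT cells (y axis, with SE) of the tested genes within 200 kb of C1R, C1S and C1RL, by the distance of their start sites from that of C1R in kb (x axis). C1R and C1S lie at -3.53 or below, while the genes between and around them lie between -1.42 and 1.997.

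Of 51 other complement genes, 15 were tested in at least 1 comparison, and 15 had no count in any of the 20 libraries. Those at 0 include the C1q genes C1QA, C1QB and C1QC, whose proteins carry C1r and C1s, as well as MBL2, FCN1, FCN2, C8A, C8B, C4BPA, C4BPB, CR1, VSIG4, CFHR2, CFHR4 and CFHR5. None of the 6 terminal pathway genes passed the filter. THBD, the membrane protein thrombomodulin, and C1QBP, a protein that binds C1q, had the most counts per kb among those tested, with CLU.

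In the comparison of genotypes, 5 other complement genes were lower DE genes in each state and none was higher, of 12 tested in unwounded cells and 14 after HDW, beside 8.22% and 7.83% of all genes that were lower DE genes. The same 5 genes were called in both. This list was also chosen with earlier results of these data known, so nothing is read from the counts. By adjusted p alone, 6 were lower and 1 higher in unwounded cells, and 6 were lower and 4 higher after HDW. All genes passing in either direction made up 66.5% and 71.7%. Among the 4 higher after HDW were THBD and ITGAM (log2 fold change 0.94), of which ITGAM lost its call in 1 of 16 alternatives. CLU, which encodes the chaperone clusterin, an inhibitor of the terminal complex, had log2 fold changes of -1.38 (edgeR adjusted p = 4.10e-09, SE 0.097) in unwounded cells and -1.31 (edgeR adjusted p = 1.78e-08, SE 0.090) after HDW.

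CFI, CFD and C5 rested on few reads, and 29.4% of the exonic bases of CFI and 14.03% of those of CFD are shared with other annotations. CFI and CFD passed the count filter through the WT libraries, where they were higher, so the filter favoured a lower call. At a mean of at least 50 counts, 3 other complement genes were called in each state. CFI, the protease that inactivates C3b, had 28.8 to 74.9 normalized read counts in WT unwounded libraries and 0.877 to 5.91 in GCN2KO unwounded libraries, with a log2 fold change of -3.87 (edgeR adjusted p = 3.01e-07, SE 0.40). CFD, the protease that activates factor B, had 24.2 to 73.5 and 6.13 to 20.3, with -1.85 (edgeR adjusted p = 1.02e-04, SE 0.32). C5, which starts the terminal pathway, had 57.6 to 100.3 and 15.8 to 46.6, with -1.36 (edgeR adjusted p = 6.41e-05, SE 0.23). After HDW, their log2 fold changes were -3.69 for CFI (edgeR adjusted p = 1.67e-05), -2.24 for CFD (edgeR adjusted p = 2.08e-07) and -2.09 for C5 (edgeR adjusted p = 5.14e-07). The median log2 fold change of the other complement genes tested was -0.38 in unwounded and -0.03 in HDW cells, so these 5 did not stand for the whole list.

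THBD rose by 0.32 in GCN2KO unwounded cells (edgeR adjusted p = 0.00105, SE 0.073), and by 0.21 after HDW (edgeR adjusted p = 0.0169, SE 0.070). C1QBP had a difference between genotypes of 0.11 (edgeR adjusted p = 0.307, SE 0.092) in unwounded cells. Among HDW cells it was lower in GCN2KO than in WT cells by 0.23 (edgeR adjusted p = 2.55e-04, SE 0.043). Both therefore differed by far less than C1R or CLU.

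Past the fold change threshold, HDW in WT cells lowered 2 of 14 other complement genes tested, beside 1.55% of all genes. Both had few reads and passed the count filter mainly through the unwounded libraries, where they were higher. A fall was therefore the likelier call, and 0 were called at a mean of at least 50 counts. ITGAM, a subunit of complement receptor 3, fell by 1.60 (edgeR adjusted p = 2.97e-04, SE 0.29), from 25.0 to 39.7 down to 4.99 to 18.6 normalized read counts. CFHR3, which shares 66.1% of its exonic bases with another annotation, fell by 1.20 (edgeR adjusted p = 0.0201, SE 0.40), and missed the adjusted p without WT unwounded replicate 5 or WT HDW replicate 3 (edgeR adjusted p = 0.0513 and 0.0508) and the fold change threshold without WT HDW replicate 5 (-0.98). In GCN2KO cells 0 of 13 other complement genes tested passed the adjusted p by edgeR, 2 had an unadjusted p under 0.05, and DESeq2 called 0. The interaction of ITGAM was 1.44 (edgeR adjusted p = 0.00688, SE 0.37) and that of C1QBP was -0.33 (edgeR adjusted p = 0.0257, SE 0.11). The C1QBP interaction missed the threshold with library size alone and without GCN2KO unwounded replicate 3 or 5 (edgeR adjusted p = 0.0606, 0.0512 and 0.0553).

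**Figure D4:**
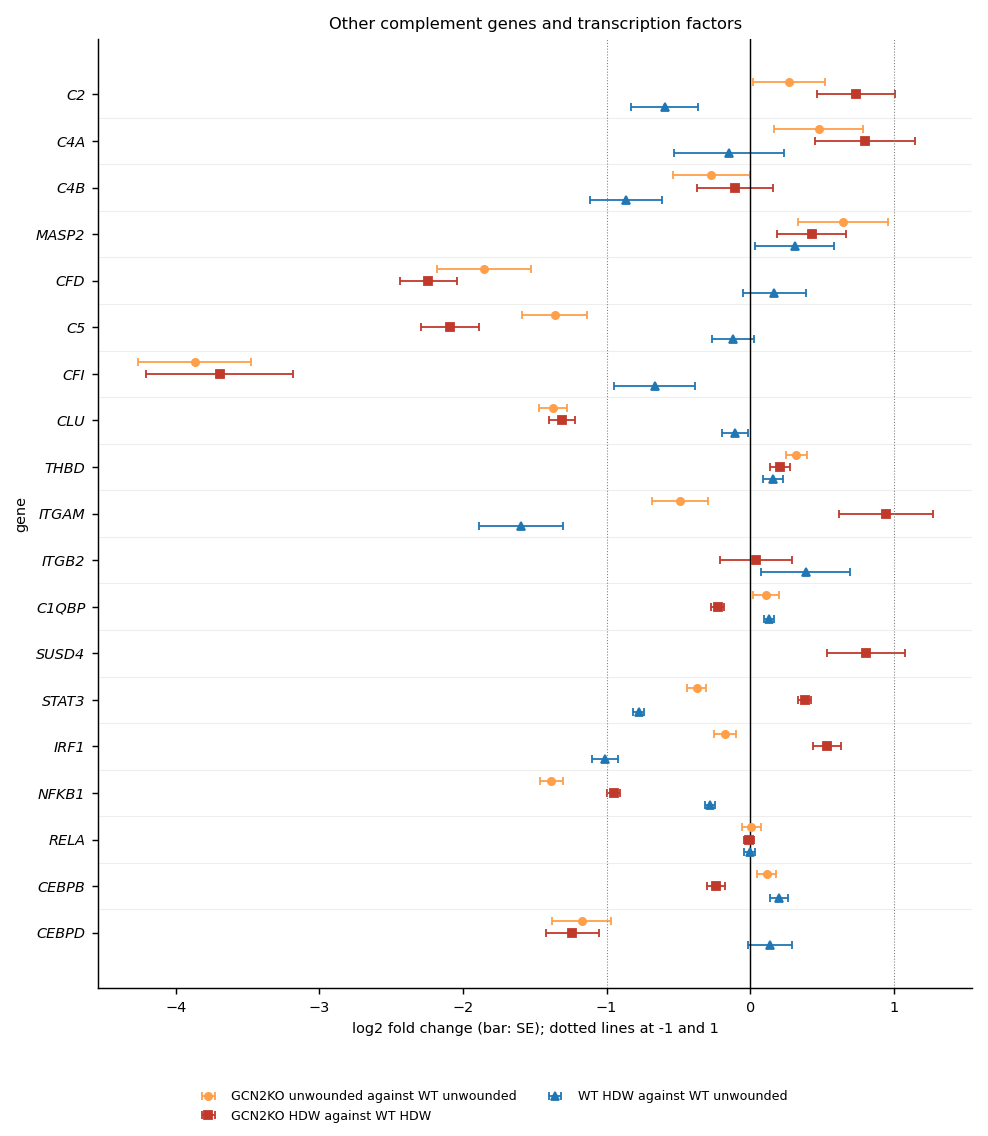
Log2 fold changes (with SE) of other complement genes tested between genotypes and of 6 transcription factors, for GCN2KO against WT in both states and for HDW in WT cells. CFD, C5, CFI, CLU and CEBPD lie below -1 in both comparisons of genotypes, and RELA lies at 0.

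The 6 transcription factors described here, known to act on complement genes, differed among themselves. NFKB1, a subunit of NF-kB, was lower in GCN2KO cells, by log2 fold changes of -1.39 (edgeR adjusted p = 4.03e-10, SE 0.079) and -0.95 (edgeR adjusted p = 6.85e-10, SE 0.044). CEBPD, of the C/EBP family, had -1.17 (edgeR adjusted p = 9.74e-05, SE 0.20) and -1.24 (edgeR adjusted p = 3.48e-05, SE 0.19). The NF-kB subunit RELA had 0.01 (edgeR adjusted p = 0.936, SE 0.066) and -0.01 (edgeR adjusted p = 0.837, SE 0.038).

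STAT3 and IRF1, both downstream of cytokine receptors, changed with HDW in WT cells. STAT3 fell by 0.78 (edgeR adjusted p = 9.16e-10, SE 0.040) and IRF1 by 1.01 (edgeR adjusted p = 2.61e-07, SE 0.091). Their interactions were 0.76 (edgeR adjusted p = 1.31e-07, SE 0.075) and 0.72 (edgeR adjusted p = 2.10e-04, SE 0.13). Between genotypes, STAT3 was lower in GCN2KO unwounded cells (log2 fold change -0.37) and higher in GCN2KO HDW cells (0.38). IRF1 had -0.18 in unwounded cells, a call lost in 14 of 19 alternatives, and 0.54 in HDW cells. CEBPB rose by 0.20 after HDW in WT cells (edgeR adjusted p = 0.0146, SE 0.063), with an interaction of -0.35 (edgeR adjusted p = 0.00634, SE 0.090). Antisense genes share 22.9% of the exonic bases of IRF1 and 12.6% of those of CEBPB.

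The genes most like C1R over the 20 libraries, of 16536 compared, were TENM2 (Pearson's r of 0.998), PLTP (0.996) and GAA (0.996). Those most like C1S were ALDH2 (0.996), FCGRT (0.996) and DLK2 (0.995), and those most like C3 were ARPIN (0.998), PLCD1 (0.996) and BMP1 (0.996). CFB was most like the readthrough gene SAA2-SAA4 (0.982), YBX3 (0.975) and TAX1BP3 (0.973). All libraries share the division into 2 genotypes, which sets most of these values.

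Among the members, removing the group means left some likeness between libraries of the same group. Over the 20 libraries, the within-group Pearson's r was 0.818 for C3 and SERPING1, 0.750 for C1R and SERPING1 and 0.743 for C1R and C3. These 3 genes and C1S had their highest GCN2KO values in GCN2KO unwounded replicate 1 and GCN2KO HDW replicate 5. CD46 and CD55 had 0.837 within groups and 0.0657 over all libraries, and both were lowest in GCN2KO unwounded replicates 2 and 4.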

How the data were processed

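Per the study's methods, the authors trimmed paired reads (Trimmomatic), mapped them to GRCh38 (STAR) and assigned unique ones to exons (featureCounts), and they deposited the raw counts per gene. Strandedness and the annotation release are not given in the sources used here. The 9 genes, the other gene lists and the tests were chosen with earlier results of these data known. Of 57500 Ensembl identifiers, 56410 were matched to GENCODE release 44.

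Groups were compared with edgeR 4.0.16 (quasi-likelihood test, TMM, filterByExpr with a minimum count of 10 and a minimum total of 15) in R 4.3.3, on the 10 libraries of each pair of groups or on all 20 for the interaction. Benjamini-Hochberg adjustment ran over all genes tested. The SE is the log2 fold change divided by the square root of the F statistic. Named beside the 9 genes were EIF2AK4, other complement genes that were DE genes or had the most counts per kb, transcription factors, genes within 200 kb of C1R, C1S and C1RL, the 3 genes most like C1R, C1S, C3 and CFB, and any of the 9 whose call changed. Alternatives included DESeq2 1.42.0, other scalings and filters, thinning, a replicate block and each library left out. The pipeline was tested on simulated data. Tables were joined in Python 3.11 with pandas 2.3.3, and figures drawn with matplotlib 3.10.9. Tables of the authors' DE genes were not used. Of the genes on these lists, 2 are counted in the totals but not reported here.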

Additional observations from a re-analysis of the deposited data

Results flagged for a closer look

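A library lay far from the other 4 of its group in 3 of the 36 groups of libraries examined for the 9 complement genes. With EIF2AK4 and the named other complement genes it was 4 of 76 groups, the further 1 for C5. A rate of 1 in 20 by chance holds for independent groups. These groups share libraries, and the far values of C1S, C3 and C5 were all in 1 library, so nothing is read from the rate. In GCN2KO HDW replicate 5, C1S had 241 normalized read counts, against at most 171 in the other 4, and C3 had 20237, against at most 16877. C5 had 31.6 in the same library, against at most 15.9 in the others. CFB had 739 normalized read counts in WT unwounded replicate 4, against at least 840.5 in the others.

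By the interaction test over all genes, 4 of the 9 genes responded to HDW differently in the 2 genotypes. The interaction was 0.34 for C1RL, 0.52 for CD46, -0.42 for CD55 and -0.87 for CD59 on the log2 scale. CD59 rose in WT cells and CD55 fell in GCN2KO cells, while CD46 and C1RL fell by more in WT than in GCN2KO cells. Among the other complement genes it was -0.33 for C1QBP, which lost its call in 3 of 29 alternatives (edgeR adjusted p up to 0.0606), and 1.44 for ITGAM. Among the transcription factors it was 0.76 for STAT3, 0.72 for IRF1, 0.44 for NFKB1 and -0.35 for CEBPB.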

How the results depend on the processing

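For the 9 genes in 5 comparisons there were 45 results and 941 alternatives, of which 904 kept direction and call, 15 lost the call, 11 gained it and 11 turned sign. The results were unchanged in every alternative run for 33 of the 45. All sign changes were of values that did not pass the test. CD55 after HDW in WT cells became 0.00088 with no filter and 0.015 after thinning, and was -0.037 to 0.0100 with a library left out. In GCN2KO cells after HDW, CD59 became -0.059 without replicates 2 and 4 of the unwounded group, a choice made after seeing the data, and was -0.0029 to 0.15 with a library left out, where SERPING1 was -0.21 to 0.015. The interaction of SERPING1 became 0.0027 with library size alone, and was -0.17 to 0.053 with a library left out, where that of C1S was -0.22 to 0.031. The cause was not tested.

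By adjusted p with no fold change threshold, the counts of the 9 genes called were 9 and 8 between genotypes (unwounded and HDW), 6 after HDW in WT cells, 3 in GCN2KO cells and 4 in the interaction, since the rule asks less. Leaving out any 1 library changed none of these counts at the full thresholds (5 and 5 between genotypes, 0 otherwise). For the other complement genes, the count between unwounded genotypes was 11 with no filter, 10 with DESeq2 and 3 at a mean of at least 50 counts, where fewer genes are tested. After HDW it was 10 without the fold change threshold and 3 at a mean of at least 50 counts. For HDW in WT cells it was 6 without the threshold, 0 at a mean of at least 50 counts, 0 after thinning and 1 to 3 with a library left out. In GCN2KO cells it was 0 to 1 with a library left out, with 1 without unwounded replicate 3 or HDW replicate 5. In the interaction it was 2 without the threshold, 0 at a mean of at least 50 counts and 1 to 2 with a library left out, with 2 without GCN2KO HDW replicate 5.

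Over all genes, DESeq2 with its own filtering in place of the count filter called 3408 against 2521 DE genes between unwounded genotypes, where edgeR with no filter called 3920. For HDW in GCN2KO cells these were 72, 106 and 199. The share of the tool and of the filter was not separated. Samples with the same replicate number did not deviate together (mean r of -0.16 to 0.039 over the comparisons), so the number was not taken as a pairing. With the replicate block, 5 and 5 of the 9 genes were DE genes between genotypes and 0 in the other comparisons, C1RL after HDW in GCN2KO cells lost its adjusted p (0.0804) and C3 after HDW in WT cells gained it (0.0498). Depth limits CFI, CFD, C5, ITGAM and CFHR3, which had few reads.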
